A study of Drosophila melanogaster with 12 samples.

Results

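The proteasome genes described here are the 41 rows of the mRNA count table whose symbol names a proteasome subunit (Pros followed by a number, alpha or beta, or Rpn or Rpt followed by a number), out of 15240 genes and 127 TEs. They comprise 28 general subunits and 13 paralogs with a T or R in their current name, which are known as the testis forms of proteasome subunits in Drosophila. The table uses older symbols for some of them, so Pros25, Pros29, Pros28.1 and Pros35 are the alpha subunits now called Prosalpha2, Prosalpha3, Prosalpha4 and Prosalpha6, and Pros26 is Prosbeta6. Likewise Pros26.4 is Rpt2, Pros45 is Rpt6 and Pros54 is Rpn10. Pros28.1A and Pros28.1B are Prosalpha4T1 and Prosalpha4T2, and Prosbeta5R is Prosbeta5R1. All 41 could be matched to RefSeq by symbol or synonym.

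RNA was sequenced after rRNA removal. It came from the testes of 2 genotypes, wild type and klp10A RNAi (nos-gal4>UAS-klp10ARNAi), with all flies aged 0 to 2 days, with 3 libraries per genotype and 300 pairs of testes per library. The nos-gal4 driver is active in germ cells, so the knockdown of the kinesin Klp10A was directed at the germline, while the RNA came from the whole testis with its somatic cells. The labels name the controls only as wild type and list no driver-only control. The replicates are separate samples by their labels, and p-values measure the spread between them. As this is bulk RNA, fewer cells of a type and less RNA per cell cannot be told apart.

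The proteasome degrades ubiquitin-tagged proteins. Its barrel-shaped core is built of rings of alpha subunits, which gate the entrance, and of beta subunits, some of which carry the proteolytic sites. The regulatory particle caps the core: its Rpt subunits are ATPases that unfold substrates and feed them into the core, and its Rpn subunits bind, scaffold or deubiquitinate them. In Drosophila males several subunits have a second gene expressed mainly in the testis, and the testis form of the alpha subunit Prosalpha6, Prosalpha6T, is known to be required for normal sperm formation.

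The libraries held 18634687 to 25536724 counts, and the 41 genes together took 0.11% to 0.251% of them. Genes named only by a CR number, mostly noncoding RNA, took 30.6% to 51.6% of the counts in wild type and 24.9% to 37.2% in klp10A RNAi. The libraries were scaled by edgeR's TMM method (factors 0.702 to 1.33), and the levels below are CPM on that scale, that is, each count relative to the scaled library total, without correction for gene length. Wild type replicate 2 stood apart from the other libraries: over all features tested, its log2 CPM differed from that of wild type replicates 1 and 3 by a median of 0.385 and 0.324, whereas those replicates differed from each other by 0.166. Results are therefore given with and without wild type replicate 2. Within klp10A RNAi, replicate 2 differed from replicates 1 and 3 by a median of 0.208 and 0.200, and those from each other by 0.101. The counts of Klp10A itself were 1458, 802 and 1527 in wild type replicates 1 to 3 against 327, 364 and 313 after knockdown, with a log2 fold change of -2.35 ± 0.16 (SE, edgeR adjusted p = 0.00105).

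None of the 41 proteasome genes differed between the genotypes at the limit used for genes, an adjusted p-value under 0.01 from edgeR's quasi-likelihood test, where 2.02% of the 12100 features tested did so (0.198% higher and 1.83% lower in klp10A RNAi). DESeq2 also put 0 of the 41 under 0.01, where 781 of the 12100 features were. At an unadjusted p-value under 0.05, edgeR gave 14 of the 41 as higher in klp10A RNAi and 0 as lower, while over all features 9.60% were higher and 15.6% lower. All 41 genes passed the filter on low counts, with 85 to 3445 counts in a library, and the SE of their log2 fold changes ran from 0.126 to 0.308.

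The sizes were small and mostly on one side. The log2 fold change was above 0 at 34 of the 41 genes, against 50.8% of all features, and its median was 0.32 against 0.01 over all features. It ran from -0.51 at Rpt3 to 0.62 at Pros28.1A, so the largest difference was 1.54-fold. In 28 genes the CPM of the genotypes did not overlap, with klp10A RNAi above wild type, and in 0 with klp10A RNAi below. Over all features these shares were 17.1% and 18.4%. Summed over the 28 general subunits, wild type had 1176, 1256 and 1250 CPM in replicates 1 to 3, and klp10A RNAi had 1433, 1478 and 1405. All genes share the same 6 libraries, so such counts of genes are no measure of replication. Without wild type replicate 2, 40 of the 41 values were above 0, against 52% of all features, and the median was 0.24 against 0.02. In that fit 0 of the 41 passed the limit in edgeR, where 3.17% of all features did, and 14 were higher at an unadjusted p-value under 0.05, against 10.9%.

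**Figure D1:**
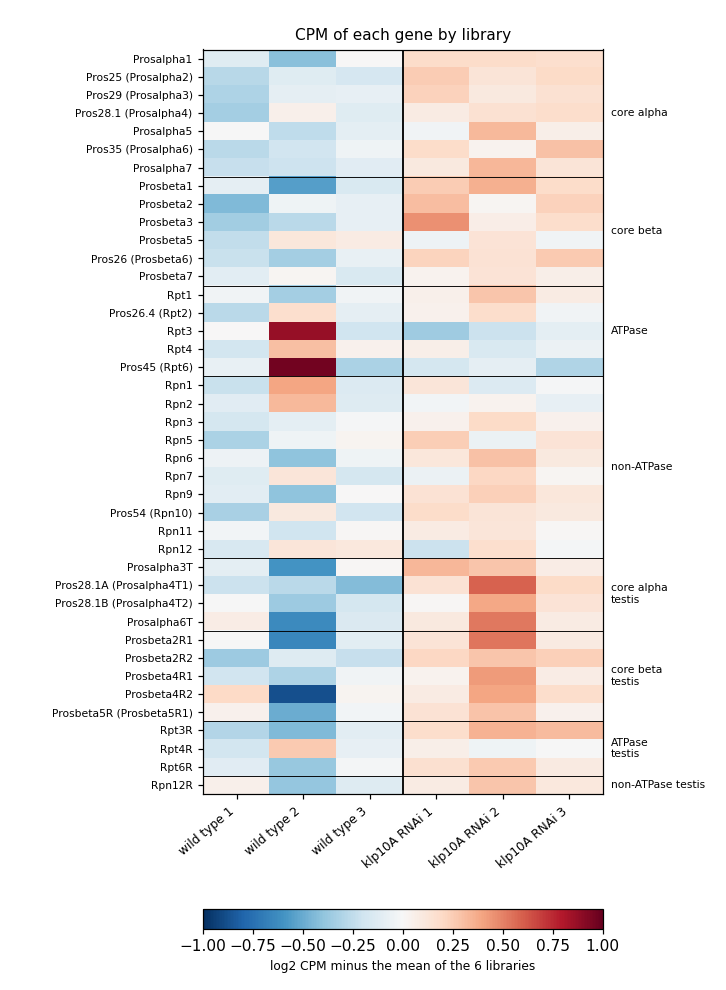
Heat map of the 41 proteasome genes (rows, grouped by subcomplex) in the 6 libraries (columns), where the colour is log2 CPM minus the gene's mean over the 6 libraries. Rpt3 and Pros45 are darkest red and Prosbeta4R2 darkest blue in wild type replicate 2, while most genes are red in klp10A RNAi.

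By subcomplex, all 7 general alpha subunits had values above 0, from 0.24 at Prosalpha5 to 0.38 at Pros25, with a median of 0.34. Pros25 had 42.5, 47.4 and 45.9 CPM in wild type and 61.5, 56.4 and 58.8 CPM in klp10A RNAi, so that the genotypes did not overlap (log2 fold change 0.38 ± 0.13 SE, edgeR adjusted p = 0.118). Prosalpha7, another ring subunit, had 56.3, 57.2 and 60.9 CPM in wild type and 70.6, 82.9 and 72.2 CPM in klp10A RNAi (log2 fold change 0.37 ± 0.14 SE, edgeR adjusted p = 0.142). Pros35 (0.34), Pros29 (0.32) and Pros28.1 (0.27) also had no overlap between the genotypes, whereas Prosalpha5 had 54.0 CPM in 1 wild type library and 52.7 CPM in 1 klp10A RNAi library. The value of Prosalpha1, 0.35, is uncertain, because its row and that of CG30382 (Prosalpha1R), which is not among the 41, carried almost the same counts: 1587 and 1680 in wild type replicate 1, for example. The authors' counting shared out reads that matched several places, and the 2 genes may share theirs.

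Among the 6 general beta subunits the values ran from 0.03 to 0.51, all above 0. The largest was at Prosbeta1, the subunit with caspase-like activity, which had 43.9, 32 and 42.2 CPM in wild type and 55.8, 59.9 and 53.1 CPM in klp10A RNAi. The log2 fold change of 0.51 ± 0.16 (SE) came with an adjusted p of 0.0922 from edgeR and 0.0515 from DESeq2. Prosbeta3 (0.47), Pros26 (0.42) and Prosbeta2 (0.38), the last with trypsin-like activity, also showed no overlap between the genotypes. Prosbeta7 had a smaller value of 0.16, from 53.8 to 60.7 CPM in wild type and from 61.5 to 66.0 CPM in klp10A RNAi. The chymotrypsin-like subunit Prosbeta5 did not show this pattern: it had 24.7, 31.6 and 30.9 CPM in wild type and 28.3, 32.2 and 28.6 CPM in klp10A RNAi, and its log2 fold change of 0.03 (SE 0.15) was -0.07 without wild type replicate 1. The general beta4 gene, listed as CG17331 and so not among the 41, had a value of 0.13.

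The general ATPases had values on both sides of 0. Of 5, the values of Rpt1 (0.27) and Pros26.4 (0.11) were above 0 and those of Rpt4 (-0.11), Pros45 (-0.47) and Rpt3 (-0.51) below 0, with a median of -0.11. The negative value of Pros45, and most of the size of that of Rpt3, rested on a single library. Rpt3 had 12.5, 22.7 and 10.8 CPM in wild type replicates 1 to 3 and 9.71, 10.7 and 11.6 CPM in klp10A RNAi. Pros45 had 10.2, 21.0 and 8.63 CPM in wild type and 9.51, 10.1 and 8.76 CPM in klp10A RNAi. In both genes wild type replicate 2 stood well above the 5 other libraries, among which the genotypes overlapped. Without that replicate the log2 fold change was -0.12 (SE 0.14) for Rpt3 and 0.01 (SE 0.14) for Pros45, and the median of the 5 ATPases was 0.02. The ATPase Rpt5 is listed as Tbp-1, outside the 41, and had a value of 0.17.

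The 10 general Rpn subunits lay between these groups, with values from -0.07 to 0.32 and a median of 0.16. Rpn6, a lid subunit that bridges the regulatory particle and the core, had 108, 84.7 and 109 CPM in wild type and 121, 137 and 120 CPM in klp10A RNAi (log2 fold change 0.32 ± 0.16 SE, edgeR adjusted p = 0.261). Pros54, a ubiquitin receptor, had 55.8, 74.4 and 61.0 CPM in wild type and 79.3, 76.4 and 74.7 CPM in klp10A RNAi, so that the nearest libraries of the genotypes almost met. Rpn11, the deubiquitinase of the lid, had a value of 0.14, and the scaffolds Rpn1 and Rpn2 had -0.05 and -0.07. In both scaffolds wild type replicate 2 was the highest of the 6 libraries, at 59.6 CPM for Rpn1 and 114 CPM for Rpn2. Without it their values were 0.17 and 0.10. Of the other lid subunits, Rpn9 had 0.32, Rpn5 0.22, Rpn3 0.19, Rpn7 0.12 and Rpn12 -0.04, and none had an unadjusted p-value under 0.05 in edgeR. Mov34, the general Rpn8 gene outside the 41, had 0.48 (edgeR adjusted p = 0.0908). CG13349 (Rpn13), also outside the 41, had 0.135, and its genotypes overlapped.

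**Figure D2:**
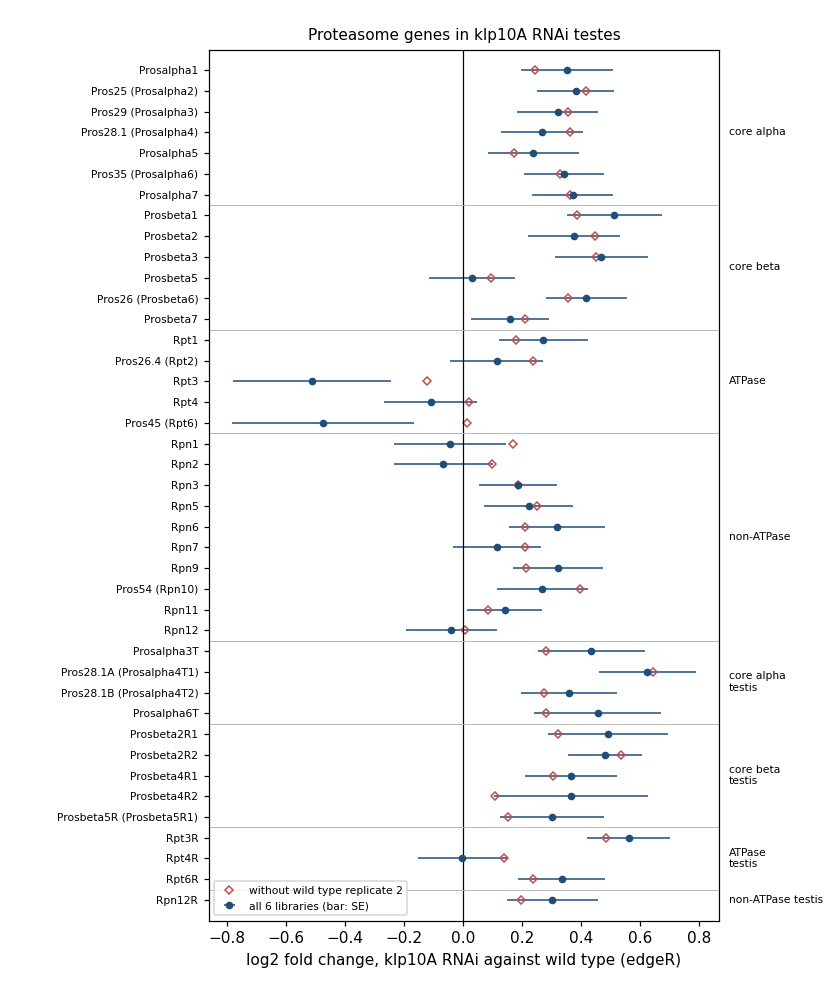
Log2 fold change (klp10A RNAi against wild type, edgeR) of the 41 genes by subcomplex, with all 6 libraries (filled circles, bars are the SE) and without wild type replicate 2 (open diamonds). Rpt3 and Pros45 move from -0.51 and -0.47 to -0.12 and 0.01 when that library is left out.

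The 13 testis paralogs had a median log2 fold change of 0.37, from 0.00 at Rpt4R to 0.62 at Pros28.1A, and 12 of them were above 0. None passed the limit in edgeR or DESeq2. In edgeR 6 had an unadjusted p-value under 0.05, all higher. Summed over the 13, wild type had 414.2, 311.1 and 394.8 CPM and klp10A RNAi had 453.5, 537.0 and 456.0 CPM. The lowest of the 6 sums was that of wild type replicate 2 and the highest that of klp10A RNAi replicate 2. Without wild type replicate 2 all 13 values were above 0, with a median of 0.28. The median was 0.29 without klp10A RNAi replicate 2.

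Of all 41 genes, 3 testis paralogs had the lowest adjusted p-values. Rpt3R, the testis form of an ATPase, had 20.5, 18.5 and 23.4 CPM in wild type and 28.5, 32.1 and 31.4 CPM in klp10A RNAi. Its means were 20.8 ± 2.46 CPM and 30.7 ± 1.93 CPM (SD, n = 3 libraries each). This gave a log2 fold change of 0.56 ± 0.14 (SE), with an adjusted p of 0.0485 from edgeR and 0.0150 from DESeq2. Over the fits without 1 library its adjusted p from edgeR ran from 0.0383 (without wild type replicate 2, log2 fold change 0.49) to 0.178 (without klp10A RNAi replicate 3, 0.55).

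Prosbeta2R2, a testis form of the trypsin-like subunit, had 13, 15.3 and 14.3 CPM in wild type and 19.3, 20.3 and 19.8 CPM in klp10A RNAi. The log2 fold change was 0.48 ± 0.13 (SE, edgeR adjusted p = 0.0554), and over the fits without 1 library the adjusted p ran from 0.0219 (without wild type replicate 2, 0.54) to 0.182 (without klp10A RNAi replicate 3, 0.49). Pros28.1A, a testis form of the alpha subunit Pros28.1, had 9.52, 9.17 and 8.19 CPM in wild type and 12.2, 16.6 and 12.6 CPM in klp10A RNAi, with a log2 fold change of 0.62 ± 0.16 (SE, edgeR adjusted p = 0.0568), and its adjusted p ran from 0.0527 (without wild type replicate 2) to 0.157 (without klp10A RNAi replicate 2). In these 3 genes the genotypes did not overlap. With Prosbeta1 they were the 4 of 41 under an adjusted p-value of 0.1 in edgeR, all higher, where 4.10% of all features were higher and 9.83% lower. DESeq2 gave 8 of the 41 under 0.1, all higher, against 4.18% of all features. In edgeR, without klp10A RNAi replicate 1, 2 or 3 in turn, 0 of the 41 were under 0.1, where 0.579%, 1.21% and 0.645% of all features were higher. Without wild type replicate 1 or 3 the number was 1 each, against 1.92% and 2.39%, and without wild type replicate 2 it was 11, all higher, against 6.05%.

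Of the other core paralogs, Prosalpha6T had 58.9, 35.9 and 50.7 CPM in wild type and 60.0, 80.6 and 59.2 CPM in klp10A RNAi. Prosbeta4R2 had 60.2, 28.5 and 53.2 CPM in wild type and 55.4, 68.6 and 59.1 CPM in klp10A RNAi. Wild type replicate 2 was lowest in both, and its Prosbeta4R2 level lay 0.98 below the mean of the other wild type libraries on the log2 scale. The log2 fold change of Prosbeta4R2, 0.37 (SE 0.26), was 0.11 without that library, and that of Prosalpha6T, 0.46 (SE 0.22), was 0.28. Without klp10A RNAi replicate 2, the highest library in both, they were 0.275 and 0.297. Prosbeta2R1 (0.49), Prosalpha3T (0.43), Prosbeta4R1 (0.37), Pros28.1B (0.36) and Prosbeta5R (0.30) had genotypes that did not overlap, by narrow margins in most. Prosbeta5R, for instance, had up to 55.6 CPM in wild type and at least 55.7 CPM in klp10A RNAi. CG31742 (Prosbeta5R2), a further testis form outside the 41, had a value of 0.58 (adjusted p = 0.0786).

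In the regulatory particle, Rpt6R had 44.2, 36.8 and 47.2 CPM in wild type and 53.4, 57.3 and 51.0 CPM in klp10A RNAi, and Rpn12R had 40.2, 29.7 and 35.5 CPM and 41.1, 47.1 and 41.9 CPM. Their log2 fold changes were 0.33 (SE 0.15) and 0.30 (SE 0.15). CG6789 (Rpn13R), a testis form outside the 41, had 0.26 (edgeR adjusted p = 0.281). Rpt4R was the testis paralog without any such difference, with 22.0, 30.0 and 23.6 CPM in wild type and 26.1, 24.3 and 24.9 CPM in klp10A RNAi. Its highest library was wild type replicate 2, as it was for its general partner Rpt4.

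**Figure D3:**
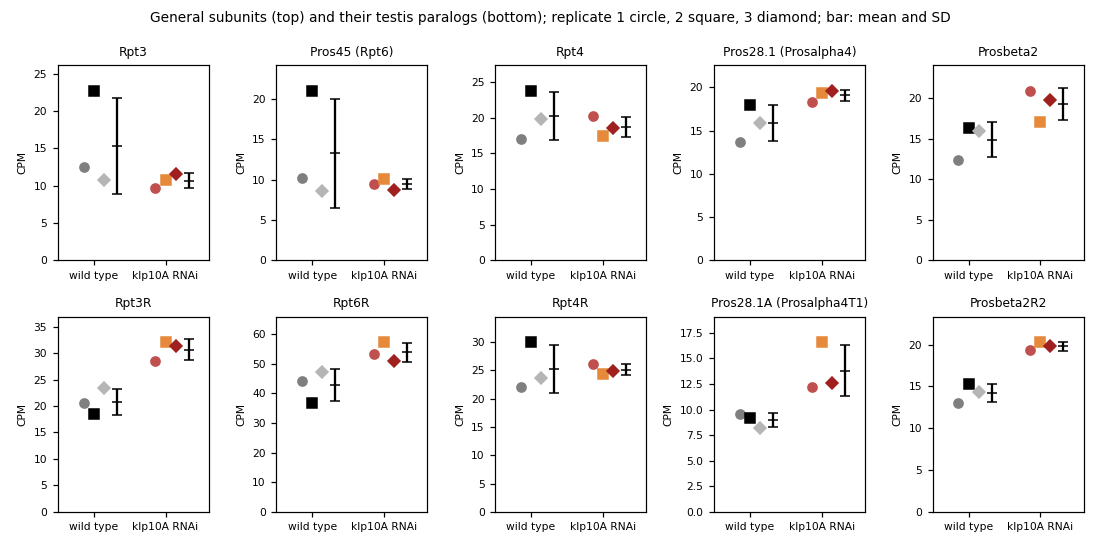
CPM (vertical axes start at 0) of 5 general subunits (top row) and of a testis paralog of each (bottom row) in the 3 wild type and 3 klp10A RNAi libraries, with the mean and SD beside each group. Wild type replicate 2 (black square) is at 22.7 CPM for Rpt3 and 21.0 CPM for Pros45 but lowest for Rpt3R and Rpt6R, and Rpt3R, Prosbeta2R2 and Pros28.1A show no overlap between the genotypes.

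Each testis paralog was then compared with its general partner within a library, as the log2 ratio of their counts (plus 0.5), which needs no scaling between libraries. The ratios are not corrected for gene length, so only their change between libraries is read. The mean ratio was higher in klp10A RNAi in all 13 pairs, by 0.09 to 1.01 on the log2 scale with a median of 0.23. In 3 pairs the genotypes did not overlap, all higher in klp10A RNAi (exact permutation test, two-sided p = 0.1 each, the smallest p that 3 libraries against 3 allow). All 3 were ATPases. When every feature tested was set against the same partners, 7.76% of the ratios were higher without overlap and 25.9% lower. These shares are pooled over the partners of all 13 pairs, and no share for each partner was taken. The partners of the 3 pairs, Rpt3 (-0.51), Pros45 (-0.47) and Rpt4 (-0.11), had the lowest log2 fold changes of all partners. The pooled share is therefore not the share for these 3 partners.

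The ratio of Rpt3R to Rpt3 was 1.64, 0.815 and 2.16 in the wild type libraries against 2.93, 3.01 and 2.70 in klp10A RNAi. This difference of 1.01 on the log2 scale, or 2.02-fold, combined a higher Rpt3R level in klp10A RNAi with the high Rpt3 level of wild type replicate 2. Without that replicate it was 0.61, and the genotypes still did not overlap (exact permutation test, two-sided p = 0.1, the smallest possible with 2 libraries against 3). For Rpt6R against Pros45 the ratio was 4.34, 1.75 and 5.46 in the wild type libraries against 5.60, 5.66 and 5.81 in klp10A RNAi. Its difference of 0.72 was 0.22 without wild type replicate 2. For Rpt4R against Rpt4 the difference was only 0.11, and the highest wild type and lowest klp10A RNAi ratios were 0.367 and 0.368 on the log2 scale, so they all but touched.

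In the other 10 pairs the genotypes overlapped. The ratio of Rpn12R to Rpn12 was 3.99, 2.45 and 2.97 in the wild type libraries against 4.27, 3.75 and 3.81 in klp10A RNAi, a difference of 0.36 (exact permutation p = 0.3, two-sided). That of Pros28.1A to Pros28.1 was 0.694, 0.513 and 0.516 in the wild type libraries against 0.666, 0.864 and 0.642 in klp10A RNAi, a difference of 0.34 (exact permutation p = 0.3, two-sided). Prosbeta2R2, although among the genes with the lowest adjusted p-values, stood in nearly the same ratio to Prosbeta2 in both genotypes, with 1.06, 0.939 and 0.897 in the wild type libraries against 0.923, 1.19 and 1 in klp10A RNAi (exact permutation p = 0.6, two-sided).

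The common direction of the ratios depended on wild type replicate 2 and on klp10A RNAi replicate 2. The ratio of wild type replicate 2 was the lowest of all 6 libraries in 11 of the 13 pairs, and it lay below the mean of wild type replicates 1 and 3 by a median of 0.57 on the log2 scale. Without it, the difference was above 0 in 8 pairs and below 0 in 5 (Prosalpha3T, Pros28.1B, Prosalpha6T, Prosbeta2R1 and Prosbeta4R2), with a median of 0.08 and a range from -0.14 to 0.61. Without klp10A RNAi replicate 2 it was above 0 in 9 pairs and below 0 in 4 (Pros28.1B, Prosalpha6T, Prosbeta2R1 and Prosbeta2R2), with a median of 0.08. Without any 1 of the other 4 libraries all 13 differences were above 0. The share of all counts of the 41 genes that fell on testis paralogs was 26.0%, 19.8% and 24.0% in the wild type libraries against 24.0%, 26.6% and 24.5% in klp10A RNAi. The mean was 23.3% ± 3.16 in wild type and 25% ± 1.38 in klp10A RNAi (SD, n = 3 libraries each), and the genotypes overlapped. It was 25% in wild type without replicate 2.

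**Figure D4:**
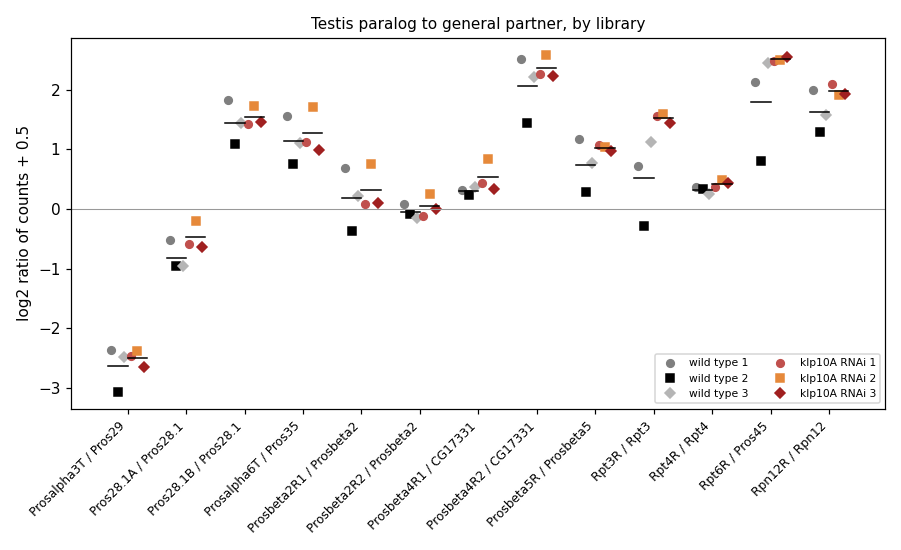
Log2 ratio of the counts (plus 0.5) of each testis paralog to its general partner in the 6 libraries, with black lines at the mean of each genotype. The black squares of wild type replicate 2 are lowest in 11 of the 13 pairs, and the ratio of Rpt3R to Rpt3 is 2.02-fold higher in klp10A RNAi.

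Wild type replicate 2 deviated in both directions among the general subunits and mostly downwards among the testis paralogs. Relative to the mean of wild type replicates 1 and 3, the log2 CPM of wild type replicate 2 had a median of 0.10 over the 28 general subunits and -0.31 over the 13 testis paralogs, against 0.01 over all features tested (quartiles -0.34 and 0.34). It lay above that mean in 16 and below it in 12 of the general subunits, and above in 3 and below in 10 of the paralogs. It was the lowest wild type library in 10 of the 13 paralogs and in 8 of the 28 general subunits, while 41.5% of all features had it lowest. Klp10A RNAi replicate 2 was the highest library of its genotype in 11 of the 13 paralogs and in 15 of the 28 general subunits, against 42.6% of all features.

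Markers of the germ cell stages and of other tissues were measured in the same fit. Over all 12100 features tested, 9.60% were higher and 15.6% lower at an unadjusted p-value under 0.05 in edgeR. The limit of 0.01 was passed by 2.02% in edgeR and by 781 features in DESeq2. Of 17 spermatid markers, 0 passed the limit in edgeR and 1 in DESeq2, and 1 had an unadjusted p-value under 0.05. Their median log2 fold change was 0.11, and they summed to 3190 to 3940 CPM in wild type, with replicate 2 lowest, and to 3400 to 4320 CPM in klp10A RNAi. Wild type replicate 2 lay below the mean of the other wild type libraries in 14 of the 17, with a median deviation of -0.34 on the log2 scale. That median was -0.31 in the testis paralogs and 0.01 over all features. Other lists also had it below, in 10 of 13 accessory gland markers (-0.28), 5 of 8 midgut and tubule markers (-0.23) and 5 of 7 spermatogonial markers (-0.12). It was below in only 5 of 13 spermatocyte markers (0.04) and 2 of 8 hub and cyst markers (0.13). The cause was not tested. Of 13 spermatocyte markers, 0 passed in edgeR or DESeq2 and 8 had an unadjusted p-value under 0.05. All 13 had values above 0 with a median of 0.44, and their sums of 305 to 418 CPM in wild type lay below those of 478 to 483 CPM in klp10A RNAi. Of 7 spermatogonial markers, 0 passed in edgeR or DESeq2 and 3 had an unadjusted p-value under 0.05. Their median was 0.42, with sums of 87.7 to 98.8 CPM in wild type and 107 to 130 CPM in klp10A RNAi. Most of these sums came from 2 genes. In wild type chinmo had 42.9 to 52.2 CPM and bgcn 30.9 to 35.1 CPM, and the genotypes overlapped in chinmo. The values were above 0 in 6 of the 7 and below 0 in stg (-0.84).

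Markers of somatic tissues had medians below 0. The values of the 13 accessory gland markers were all below 0, with a median of -0.54. Their sums were 2710 to 4030 CPM in wild type and 2080 to 2640 CPM in klp10A RNAi. Of the 13, 0 passed in edgeR or DESeq2 and 6 had an unadjusted p-value under 0.05 in edgeR, where 15.6% of all features were lower. The 8 midgut and Malpighian tubule markers had a median of -3.89. Past the limit, 4 of them were lower in edgeR, against 1.83% of all features, and 8 in DESeq2. Their sums were 273 to 341 CPM in wild type and 87.0 to 120 CPM in klp10A RNAi. The 8 hub and cyst cell markers had values on both sides of 0, with 5 below, 3 above and a median of -0.15. Their sums were 75.8 to 80.1 CPM in wild type and 66.0 to 79.7 CPM in klp10A RNAi. In that list 0 passed in edgeR or DESeq2, and 1 had an unadjusted p-value under 0.05 in edgeR. It was eya, which was higher in klp10A RNAi (0.45). Of the fat body markers only 2 could be tested (median -1.01). The part of these differences in the levels of the proteasome genes was not tested.

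Genes that work with the proteasome had smaller values. The list of 28 such genes in the table covered assembly, activation, substrate delivery and ubiquitin. It also held cnc, maf-S, klhl10, soti, Roc1b and Bruce. Of the 28, 0 passed the limit in edgeR or DESeq2. An unadjusted p-value under 0.05 in edgeR was found for 4, against 25.2% of all features. The 4 were Ufd1-like and p47, cofactors of the unfoldase TER94 (0.33 and 0.29), CG12795 (0.39) and CG11700 (0.43). Their values were all above 0. The median of the 28 was 0.15, with 20 above 0 and 8 below. Among those below, Ubqn had -0.35 (edgeR unadjusted p = 0.0528) and RpS27A had -0.19. In both, klp10A RNAi lay below wild type without overlap, as did 18.4% of all features. The assembly factor Pomp had 0.13 and the activator REG 0.24. The regulators PI31 and ntc, both known to act on proteasomes in sperm formation, had 0.23 and 0.36, and cnc, the fly relative of the factors that induce proteasome genes in mammals, had -0.16. The polyubiquitin genes Ubi-p63E and Ubi-p5E had 0.18 and 0.07.

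The gene models of 17 of the 41 overlap another gene in RefSeq Release 6, among them Pros28.1A (with CG42322), Rpt3R (with Alg12), Pros45 (with CG1801), Prosbeta4R2 (with Or23a) and Rpn12R (with Sytbeta). The strand setting of the counting was not given in the sources used here, so reads of such partners may be included.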

How the data were processed

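By the study's methods, STAR 2.6.0a placed the reads of the mRNA libraries on dm3 and kept many alignments for a repetitive read. TEtranscripts then assigned reads to genes or TEs, and its way of sharing reads between copies may affect near-identical genes. The deposited counts are whole numbers with unequal sums per library, and they were analysed as raw counts, although the labels speak of normalized ones. The piRNA tables hold no proteasome genes and were not used here. Counts were tested with edgeR 4.0.16 (R 4.3.3; TMM on all rows, low counts removed by filterByExpr, quasi-likelihood F-test), with Benjamini-Hochberg adjustment over all features tested. The limit of 0.01 is that of the study's methods. DESeq2 1.42.0 and other scalings, filters and limits, the fit with a replicate block and fits without 1 library were alternatives. Ratios of paralog to partner were compared by exact permutation. All members are named, and companion genes where their unadjusted p-value was under 0.05, together with examples chosen after their values were seen. The members and lists were chosen with earlier results of these data known, and the lists come from general knowledge. Gene names were taken from RefSeq Release 6. No source used here says that a replicate number marks a shared batch, so no pairing was used in the main fit.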

Additional observations from a re-analysis of the deposited data

How the results depend on the processing

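The number of the 41 genes past the limit was 0 in every fit that left out a library or changed the filter, and with TMM over genes alone, DESeq2's size factors, TMM without CR genes or the DESeq2 Wald test. With total counts in place of TMM it was 1 higher, the testis paralog Pros28.1A (log2 fold change 1.10, adjusted p = 0.00829 from edgeR). With that scaling 526 of the 12100 features passed, compared with 245 under TMM. That scaling moved the median of all features to 0.50, and the median of the 41 lay 0.28 above it, compared with 0.31 under TMM. At an adjusted p-value under 0.05 the number was 1 (1 testis paralog), and under 0.1 it was 4 (3 testis paralogs and 1 general subunit), all higher. Companion genes stayed at 0 in all of these. The number of genes whose genotypes do not overlap was 26 with DESeq2's size factors (17.1% of all features, higher) and 33 with total counts (38.2%), compared with 28 (17.1%). The number of values above 0, an alternative added after the data were seen, ranged from 33 to 40 over the fits without 1 library.

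With total counts, values turned positive at Rpt3 (0.0359), Rpt4 (0.401), Pros45 (0.0799), Rpn1 (0.488), Rpn2 (0.446), Rpn12 (0.428) and Rpt4R (0.510). Rpt4R was also positive without CR genes (0.0171), by DESeq2 (0.000184), with no filter (0.00707) and with a replicate block (0.00761). Over the fits without 1 replicate, the log2 fold change ranged from -0.0745 to 0.0945 at Prosbeta5, -0.220 to 0.0204 at Rpt4, -0.695 to 0.0126 at Pros45, -0.159 to 0.170 at Rpn1, -0.139 to 0.0968 at Rpn2, -0.140 to 0.0609 at Rpn12 and -0.0924 to 0.140 at Rpt4R. Wild type replicate 2 was the one left out at the upper end, except at Rpn12 (klp10A RNAi replicate 1).

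The difference of the log2 ratio to the general partner ranged from -0.0818 to 0.273 for Prosalpha3T, -0.0977 to 0.271 for Pros28.1B, -0.0853 to 0.335 for Prosalpha6T, -0.144 to 0.379 for Prosbeta2R1, -0.00128 to 0.180 for Prosbeta2R2 and -0.000563 to 0.531 for Prosbeta4R2. The lower end came without wild type replicate 2, or without klp10A RNAi replicate 2 for Prosalpha6T and Prosbeta2R2. The causes were not tested.

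Klp10A had adjusted p-values of 0.0114 and 0.0174 without klp10A RNAi replicates 1 and 3. No source used here says that a replicate number marks a shared batch. The deviations of same-numbered libraries from their genotype means had correlations of -0.313, -0.434 and -0.119. Those of differently numbered libraries ran from -0.373 to 0.480. With 3 libraries per genotype such correlations cannot exclude a shared batch. With the replicate block 0 of the 41 passed, 0 were under an adjusted p-value of 0.1 and 4 had an unadjusted p-value under 0.05, from edgeR, and 98 features passed in all, compared with 245. Every member had at least 85 counts in each library, and 3 libraries per genotype limit the precision.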
